A study of Homo sapiens with 4 samples.

Results

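The cluster of olfactory receptor (OR) genes on chromosome 11 was taken as 1.6 Mb of hg19 (GRCh37) from position 55000000. It is a large tandem gene family without zinc fingers, and its members were taken by position and not by measured values. Its first and last CpGs lie at chr11:55000579 and chr11:56599947. It held 9614 of the 27710999 CpGs listed on the autosomes and X. All 320 of its 5 kb windows had at least 20 reads in every library, out of 563538 such windows in the genome. GENCODE places 98 genes with an OR symbol there, 48 of them protein-coding and 50 pseudogenes, from OR4A16 as the first protein-coding OR gene to OR5G3 as the last, and the only other protein-coding genes are TRIM48, TRIM51 and ENSG00000284732.

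EM-seq, an enzymatic alternative to bisulfite sequencing, gave the methylation: its enzymes convert cytosines without a methyl group, which then appear as T, and leave methylated ones to appear as C. All 4 libraries were of HEK293T, a human embryonic kidney cell line. The gene ZNF274, which codes for a KRAB zinc finger protein, was intact in 2 of them (wild type, WT) and deleted in the other 2 (ZNF274KO). The knockout was made with CRISPR-Cas9 and a pair of guides on either side of the gene, and cells were sorted singly, so each knockout line descends from 1 cell. The labels do not say whether the libraries of a group came from separate cultures or clones, so p-values measure only the spread between these libraries, which may be technical. Levels are given as methylated reads in percent of all reads over the CpGs concerned, and differences between groups are ZNF274KO minus WT in percentage points. A read was counted at each CpG it covers, so read numbers are counts of calls and can exceed the fragments sequenced. Intervals and upper limits treat the calls as independent and are too narrow where a read covers several CpGs. The median depth per CpG of the genome was 8 to 10 reads, and the genome-wide level was 59.3% and 60.4% in WT and 60.2% and 58.4% in ZNF274KO. Reads over ZNF274 (chr19:58694396-58724928) numbered 5158 and 4274 in WT, 0 in ZNF274KO 1 (95% exact Poisson upper limit 3.69) and 14 in ZNF274KO 2.

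Olfactory receptors are G protein-coupled receptors of the sensory neurons of the nose. Each gene codes for its receptor in a single uninterrupted exon, and the genes lie in tandem arrays that grew by duplication, leaving many pseudogenes. A mature olfactory neuron expresses 1 allele of 1 receptor gene while the others are kept in heterochromatin. OR arrays are rich in A and T and poor in CpG.

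That poverty of CpGs was seen in the sequence of the cluster. Its 1600001 bases had a GC content of 36.3% and 6.01 CpGs per kb, against 41.6% and 9.84 for chromosome 11 as a whole, and the ratio of observed to expected CpGs was 0.183 against 0.228. RefSeq gave the 250 bases before the start of 41 of the 98 OR genes and pseudogenes, all of which matched GRCh37 exactly. Of these 41 stretches, 17 (41.5%) held no CpG, against 6.06% of the 35116 RefSeq promoters of the genome, and their median was 1 CpG against 11. Whether the annotated starts of OR genes are starts of transcription was not checked, so these stretches may not be promoters. The stretches of 4 genes are shown because the genes recur in the results below, with each CpG in capitals. The stretch before OR4A16 (chr11:55110427-55110676, plus strand) had 3 CpGs, that before OR10AG1 (chr11:55737422-55737671, minus strand) 2, that before OR8U1 (chr11:56142850-56143099, plus strand) 1 and that before OR8J3 (chr11:55907678-55907927, minus strand) none.
OR4A16: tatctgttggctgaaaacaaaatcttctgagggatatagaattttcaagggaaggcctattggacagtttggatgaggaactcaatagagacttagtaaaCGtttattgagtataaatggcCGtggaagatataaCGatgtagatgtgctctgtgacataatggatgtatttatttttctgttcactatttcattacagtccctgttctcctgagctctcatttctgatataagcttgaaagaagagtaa
OR10AG1: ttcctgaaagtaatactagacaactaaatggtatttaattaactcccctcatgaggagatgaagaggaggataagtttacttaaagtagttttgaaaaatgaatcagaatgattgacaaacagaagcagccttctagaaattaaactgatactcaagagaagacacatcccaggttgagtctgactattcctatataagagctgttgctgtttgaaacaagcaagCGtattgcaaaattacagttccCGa
OR8U1: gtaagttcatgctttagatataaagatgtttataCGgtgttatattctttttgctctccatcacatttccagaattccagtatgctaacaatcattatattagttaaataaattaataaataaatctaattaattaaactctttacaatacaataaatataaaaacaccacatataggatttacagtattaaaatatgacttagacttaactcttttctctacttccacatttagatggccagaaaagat
OR8J3: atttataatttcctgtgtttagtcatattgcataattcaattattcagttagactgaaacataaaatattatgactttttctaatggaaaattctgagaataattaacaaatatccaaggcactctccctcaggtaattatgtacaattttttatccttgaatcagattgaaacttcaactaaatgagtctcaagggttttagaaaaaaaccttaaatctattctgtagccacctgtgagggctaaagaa

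Pooled, the CpGs in these short stretches had low levels in either genotype. The 39 CpGs of the 24 stretches that held any gave levels of 4.13% and 8.0% in WT and 3.62% and 5.10% in ZNF274KO, on 314 to 387 reads a library. In 16 of the 24 no methylated read was seen in any library. The stretches before OR5D18 (4 CpGs) and OR8I2 (2 CpGs), picked out after their values were seen, were higher. The first was at 22.2% and 31.4% in WT and 17.8% and 23.3% in ZNF274KO, and the second at 24% and 28% in WT and 7.14% and 26.7% in ZNF274KO. The 3 CpGs before OR4A16 had 0 methylated reads among 29, 26, 21 and 19 reads. Before OR10AG1 the 2 CpGs had 0 among 8 and 6 reads in WT, 13.8% of 29 reads in ZNF274KO 1 and 0 of 18 in ZNF274KO 2. The 1 CpG before OR8U1 had 0 methylated reads among 9, 10, 9 and 3.

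A few stretches inside the cluster did carry methylation, and 2 of them are shown for contrast on the plus strand, again with each CpG in capitals. The stretch with most CpGs in the most methylated 5 kb window lies at chr11:55020159-55020367, near the centromeric end, and by its letters is alpha satellite, the repeat of human centromeres. The stretch at chr11:55640069-55640356 lies in the span of the ankyrin repeat pseudogene ANKRD33BP6. No repeat annotation was used.
Satellite stretch: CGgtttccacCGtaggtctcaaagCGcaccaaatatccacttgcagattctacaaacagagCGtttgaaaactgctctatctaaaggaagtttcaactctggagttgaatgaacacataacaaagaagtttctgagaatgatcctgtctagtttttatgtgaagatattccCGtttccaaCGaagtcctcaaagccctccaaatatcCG
ANKRD33BP6 stretch: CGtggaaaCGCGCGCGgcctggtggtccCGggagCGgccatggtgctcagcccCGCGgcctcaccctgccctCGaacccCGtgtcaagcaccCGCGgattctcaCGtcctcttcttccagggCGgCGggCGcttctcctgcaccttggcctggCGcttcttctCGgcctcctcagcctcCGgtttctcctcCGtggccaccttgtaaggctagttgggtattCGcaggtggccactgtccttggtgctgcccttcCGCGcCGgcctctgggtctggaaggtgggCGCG

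The satellite stretch was methylated at 91.5% and 74.2% in WT and 93.0% and 87.7% in ZNF274KO. The ANKRD33BP6 stretch stood at 63.0% and 58.3% in WT and 63.4% and 49.1% in ZNF274KO. The groups overlapped in both.

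Across the whole cluster the DNA stood far below the genome-wide level in all 4 libraries. The level was 10.1% in WT 1 (95% Wilson interval 9.89 to 10.3, 87334 reads), 10.1% in WT 2 (9.92 to 10.4, 73649 reads), 9.25% in ZNF274KO 1 (9.05 to 9.45, 83976 reads) and 9.28% in ZNF274KO 2 (9.07 to 9.49, 71717 reads). These intervals cover counting error only and take calls on the same read as independent. The means were 10.1% ± 0.0333 (SD, n = 2) and 9.26% ± 0.0196 (SD, n = 2). ZNF274KO was lower in both libraries than either WT library, by 0.849 points on average (exact permutation test, two-sided, p = 0.333, which is as small as 2 against 2 can give). Measured in percentage points from the genome-wide level of each library the difference was -0.308 and the groups overlapped (exact permutation p = 1). The genome stood far above the cluster, and a subtraction in points weighs a shift alike at either level. It therefore cannot show whether the fall follows the genome-wide level.

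That fall was not large beside those of other stretches of the same length. Among 1817 bins of 1600 kb with at least 2000 CpGs the median difference was -0.772 and the middle 90% ran from -2.31 to 2.35, and 46.6% of bins had a lower difference than the cluster. The level itself did stand low. Counted from the lowest, the cluster ranked 20 of the 1817 bins, where the median bin was at 63.1% in WT.

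The share of reads that fell on the cluster was alike in the genotypes. It was 0.679% and 0.675% of the reads of chromosome 11 in WT and 0.683% and 0.667% in ZNF274KO, a ratio of means of 0.997. A stretch of 50 converted bases around the CpG occurred once in the reference for 72.6% of the cluster's CpGs. At those CpGs the level was 9.10% and 9.08% in WT and 8.42% and 8.44% in ZNF274KO, and at the others it was 13.2%, 13.4%, 11.8% and 11.9% in the same order.

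**Figure D1:**
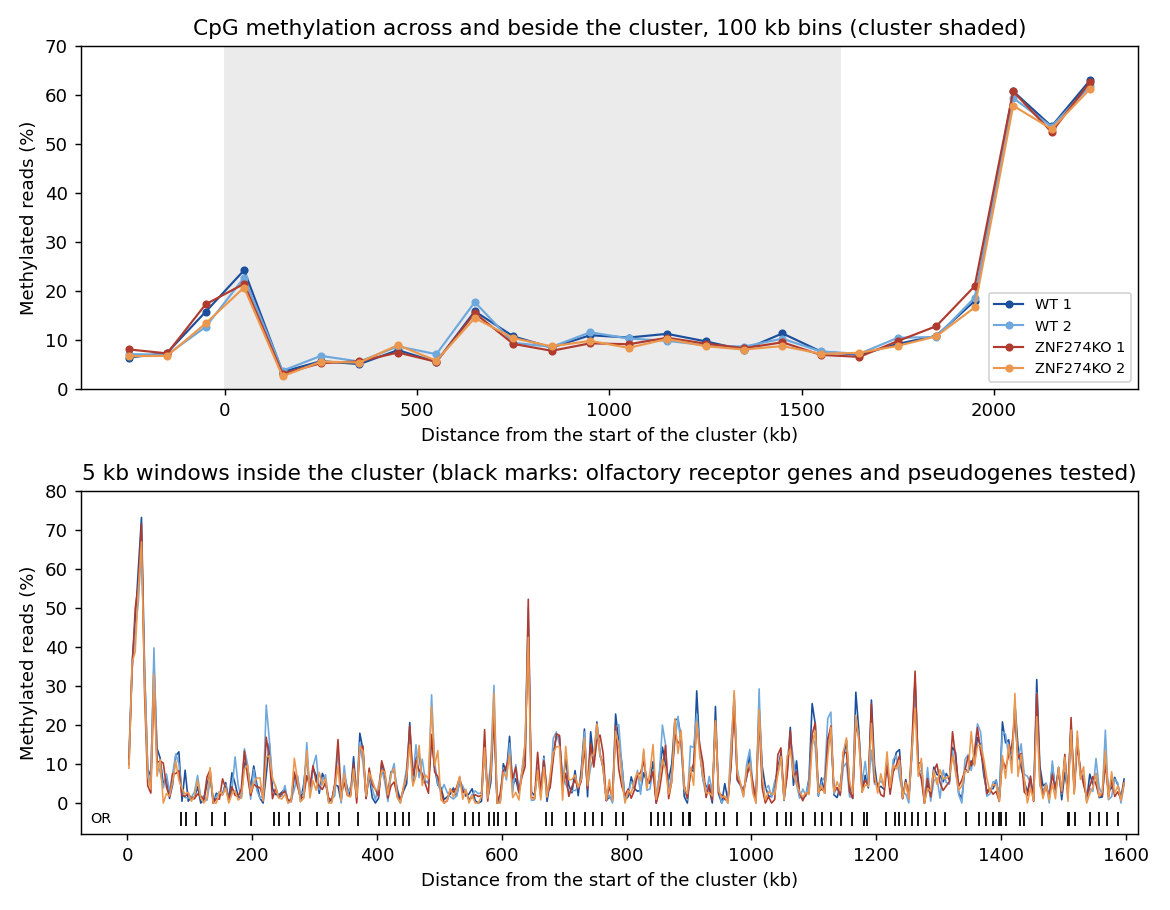
CpG methylation (% methylated reads) against distance from the start of the cluster in kb, 1 line per library, in 100 kb bins with the cluster shaded (top) and in 5 kb windows with OR genes and pseudogenes marked (bottom). The 4 libraries follow each other closely. The level stays low through most of the cluster apart from its first 50 kb, a peak at ANKRD33BP6 and lower peaks such as chr11:56260001-56265000 (WT mean 31.4%). It rises to about 60% some 400 kb beyond the end of the cluster.

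The profile along the cluster was uneven but alike in all libraries. In 100 kb bins the WT mean ran from 3.61% to 23.5% and the ZNF274KO mean from 2.86% to 21.1%. The bin with the highest level was the first, which holds TRIM48, a member of the tripartite motif family, at 24.2% and 22.7% in WT and 21.5% and 20.7% in ZNF274KO. The bin with the lowest was the next, at 3.49%, 3.73%, 3.12% and 2.60%. Differences per bin ran from -2.39 to 0.182 points, below 0 in 15 of 16 bins, beside 69.6% of 28518 bins of this length in the genome. The groups did not overlap in 8 of the 16, with ZNF274KO lower in each, beside 28.5% of all bins, and ZNF274KO was higher without overlap in 0, beside 8.86%. The low level did not end with the cluster. The 3 bins before it and the first 3 beyond it stood between 6.39% and 17.3% in every library, whereas the bin 400 kb beyond its end stood at 60.8% and 59.4% in WT and 60.7% and 57.8% in ZNF274KO.

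The first 50 kb, which hold TRIM48, stood apart. There the level was 33.8% and 31.7% in WT and 30.5% and 28.9% in ZNF274KO, and without it the cluster was at 9.01%, 9.17%, 8.30% and 8.37%. The difference of the cluster without this stretch was -0.751 points, with the groups still apart. Within the first 50 kb the high level lay mostly outside TRIM48. The windows chr11:55030001-55035000 and chr11:55035001-55040000, which hold most of that gene, had WT means of 8.64% and 5.44%.

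In 5 kb windows, no window of the cluster was called different between the genotypes. The edgeR quasi-likelihood test with Benjamini-Hochberg adjustment over all windows called 0 of 320 at an adjusted p under 0.05, against 0.486% of all windows (2740 of 563538, of which 2666 were higher in ZNF274KO). Before adjustment, 21 windows (6.56%) had a p under 0.05, beside 6.52% of all windows, and limma on log2 ratios also called 0, beside 856 of all windows. Both ZNF274KO libraries were above both WT libraries in 41 windows (12.8%), beside 13.5% of all windows, and below them in 71 (22.2%), beside 22.3%. These shares over all windows were near those of the genome. Set against windows of like WT level they differed. The WT values that sort the windows also enter the difference, so a high WT reading from counting error favours a lower ZNF274KO. No conclusion is therefore drawn from the shares by WT level. Under 10% in WT, ZNF274KO was higher without overlap in 39 of 235 windows (16.6%), beside 22.9% of all such windows, and lower in 44 (18.7%), beside 14.6%. From 10% to under 20% it was higher in 2 of 63 windows (3.17%), beside 20.7%, and lower in 20 (31.7%), beside 16.7%. The difference between the groups was under 5 points in 308 windows, with a median of -0.41 (middle 50% from -1.72 to 0.718) and a range from -8.96 to 5.36. Its median size was 1.25 points, and the median gap between the 2 libraries of a group was 1.70 points in WT and 1.69 in ZNF274KO.

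Most windows were close to unmethylated. The mean WT level of a window had a median of 5.66% (middle 50% from 2.52% to 10.5%), with 146 windows under 5%, 235 under 10%, 63 from 10% to under 20%, 22 at 20% or more and 2 at 50% or more. For scale, reads on the contigs named M and L in the files were at 0.190% to 0.277%. Across the 320 windows the level followed the number of CpGs more than GC content (Spearman's rho 0.547 and 0.0839 in WT, a description over neighbouring windows of the same libraries). In the 107 windows with fewest CpGs (11 to 23) the median WT level was 3.13%, in the next 107 it was 5.37% and in the 106 with most (32 to 149) 11.6%. The median differences in these groups of windows were 0.00, -0.66 and -0.74 points.

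**Figure D2:**
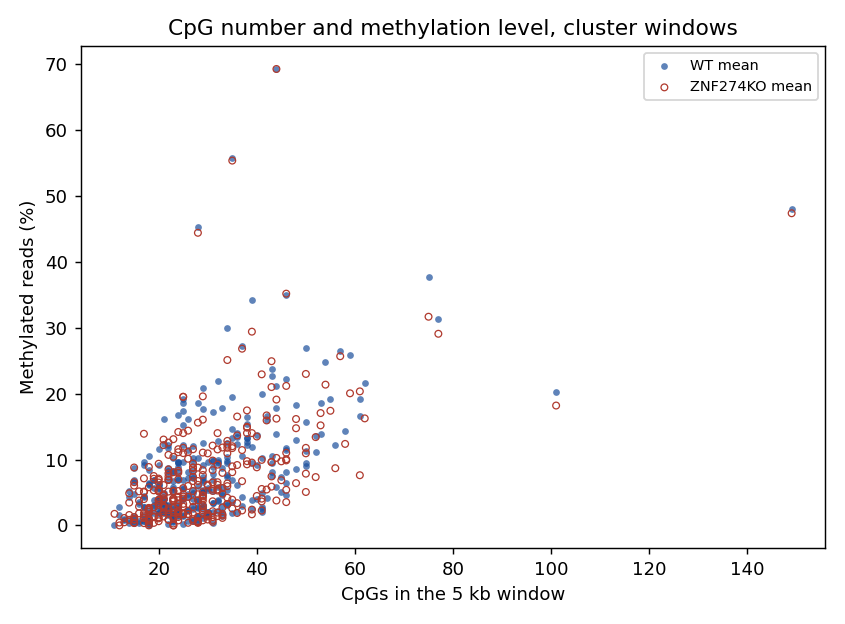
Level (% methylated reads) of each 5 kb window of the cluster against its number of CpGs, with the mean of 2 WT libraries filled and the mean of 2 ZNF274KO libraries open. Windows with more CpGs tended to be more methylated in both genotypes, and the window with 149 CpGs, at ANKRD33BP6, stands to the right at 48% in WT.

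Single CpGs gave the same picture. With at least 5 reads in every library, 6359 CpGs could be read, of which 3441 (54.1%) had no methylated read in any library. Levels under 10% were found at 79.4% of them in pooled WT reads and at 80.3% in pooled ZNF274KO reads, and levels of 50% or more at 7.14% and 6.45%. A switch from under 10% in WT to 50% or more in ZNF274KO was seen at 1 CpG (0.0157%), and the opposite at 3. At the zinc finger gene cluster 19p12, described below, the first was seen at 6825 of 25275 CpGs (27.0%) and the opposite at 17. The share over the whole genome is not given here.

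The windows with the highest WT level lay in that first stretch and at pseudogenes (a choice made with the values in view). The satellite window chr11:55020001-55025000 was at 73.3% and 65.4% in WT and 71.6% and 67.0% in ZNF274KO. Window chr11:55640001-55645000, with 149 CpGs and the end of ANKRD33BP6, was at 45.9%, 50.1%, 52.3% and 42.5%. The groups overlapped in each. The window chr11:55025001-55030000, which ends shortly after the start of TRIM48 (chr11:55029631), was at 34.5% and 34.1% in WT and 28.0% and 30.8% in ZNF274KO (edgeR adjusted p = 0.91), and there the groups did not overlap.

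The 3 largest falls among windows with the groups apart were in windows that overlap OR5AP2, OR5AP1P and OR5BN2P. These are members of family 5, which makes up 49 of the 98 OR genes and pseudogenes. The falls are those of the windows and were not seen with the groups apart at the genes themselves. Window chr11:56405001-56410000, with 61 CpGs, which holds OR5AP2, was at 15.5% and 17.7% in WT and 8.90% and 6.34% in ZNF274KO, a difference of -8.96 (edgeR adjusted p = 0.13, the lowest in the cluster). The fall was uneven within the window. In 1 part of it, outside the body of OR5AP2, 24 CpGs lie close together, 3 of them in a converted stretch of 50 bases that occurs once. That part was at 41.7% of 72 and 57.5% of 80 reads in WT and 24% of 25 and 13.3% of 30 reads in ZNF274KO, so fewer reads covered it in the knockout libraries, and the part of this in the result was not tested. The other 37 CpGs of the window were at 9.94% and 6.83% in WT and 7.64% and 5.65% in ZNF274KO, where the groups overlap. The body of OR5AP2 was at 22.1% and 14.3% in WT and 15% and 12.9% in ZNF274KO, and there too the groups overlapped. This window passed the threshold only without WT 1 (adjusted p = 0.0389) and with the replicate number as a block (0.0403, or 0.00732 with the numbers crossed).

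Its neighbour chr11:56400001-56405000, which holds the pseudogene OR5AP1P, was at 20.8% and 18.3% in WT and 11.3% and 12.2% in ZNF274KO (-7.82, edgeR adjusted p = 0.57). The body of OR5AP1P, with 4 CpGs, was at 3.45% and 0% in WT and 0% and 3.70% in ZNF274KO, and the groups overlapped. Window chr11:55880001-55885000, which overlaps OR5BN2P, was at 21.5% and 22.3% in WT and 15.3% and 12.7% in ZNF274KO (-7.85, adjusted p = 0.71 by edgeR). The promoter of OR5BN2P itself was higher in ZNF274KO, at 0.00% and 1.57% in WT and 2.84% and 4.39% in ZNF274KO. Rises were smaller. Window chr11:55495001-55500000 at OR5D3P was at 4.59% and 4.94% in WT and 6.78% and 13.5% in ZNF274KO (5.36, edgeR adjusted p = 0.73), and most of that came from ZNF274KO 2. The windows chr11:55265001-55270000 (4.60 points) and chr11:56335001-56340000 (4.54) overlapped no gene and had edgeR adjusted p-values of 0.69 and 0.57.

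The bodies of OR genes were as low as the DNA between genes, or lower. The 48 protein-coding OR genes together, over 892 CpGs, were at 7.41% and 7.01% in WT and 7.16% and 6.68% in ZNF274KO (-0.288 points, two-sided exact permutation p = 0.667), and the groups overlapped. OR pseudogenes were at 6.61% and 6.36% in WT and 5.34% and 7.06% in ZNF274KO (-0.287, exact permutation p = 1). Other genes in the cluster, mostly pseudogenes and long non-coding RNAs, were higher as a pool, at 16.05% and 16.2% in WT and 14.9% and 13.8% in ZNF274KO (-1.80, exact permutation p = 0.333). Much of this pool was 1 locus, the pseudogene ENSG00000255204, which spans ANKRD33BP6 and holds 268 of the 862 CpGs. It was at 29.2% and 32.7% in WT and 29.3% and 27.5% in ZNF274KO, on 2288 of the 7670 reads in WT 1. The groups overlapped at this locus. The level of the pool without it was not computed. The pooled values therefore do not show whether the remaining genes are higher than the DNA between genes or have the groups apart. The DNA between genes, with 7476 of the CpGs, was at 9.94% and 10.02% in WT and 9.10% and 9.19% in ZNF274KO (-0.835, exact permutation p = 0.333). In these last classes the groups were apart with ZNF274KO lower, and in OR genes and pseudogenes they overlapped, a contrast that depended on the processing. As an unweighted mean over CpGs OR pseudogenes were at -1.13 with the groups apart, OR genes on the Crick strand alone were at -0.340 with the groups apart, and other genes were at -3.29 on the Watson strand alone and -0.278 on the Crick strand, where they overlapped. Without a library OR genes ran from -0.526 (without ZNF274KO 1) and -0.486 (without WT 2) to -0.0895 (without WT 1) and -0.0490 (without ZNF274KO 2), and pseudogenes from -1.15 (without ZNF274KO 2) to 0.575 (without ZNF274KO 1).

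Levels by receptor family are given next, with no test between families. Family 5 was the largest, with 49 members, at 9.08% and 8.28% in WT and 8.22% and 8.95% in ZNF274KO. Family 9, with 5 members, was at 10.5% and 9.15% in WT and 9.51% and 7.56% in ZNF274KO. Family 8, with 18 members, was lower, at 4.8%, 6.37%, 5.65% and 5.02%, and family 4, with 21 members at the centromeric end, lower still at 4.49%, 3.31%, 3.29% and 3.80%. The groups overlapped in each of these 4 families. In family 10, with 3 members and 24 CpGs, ZNF274KO was above WT, at 3.30% and 2.40% against 1.72% and 2.28%, on 208 to 273 reads a library. Families 2 and 7, with 1 pseudogene each, had 12 and 11 CpGs. The first was at 0.833% and 5.36% in WT and 1.87% and 0.00% in ZNF274KO, the second at 0.613% and 2.35% in WT and 1.6% and 5.13% in ZNF274KO, and the groups overlapped in both.

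**Figure D3:**
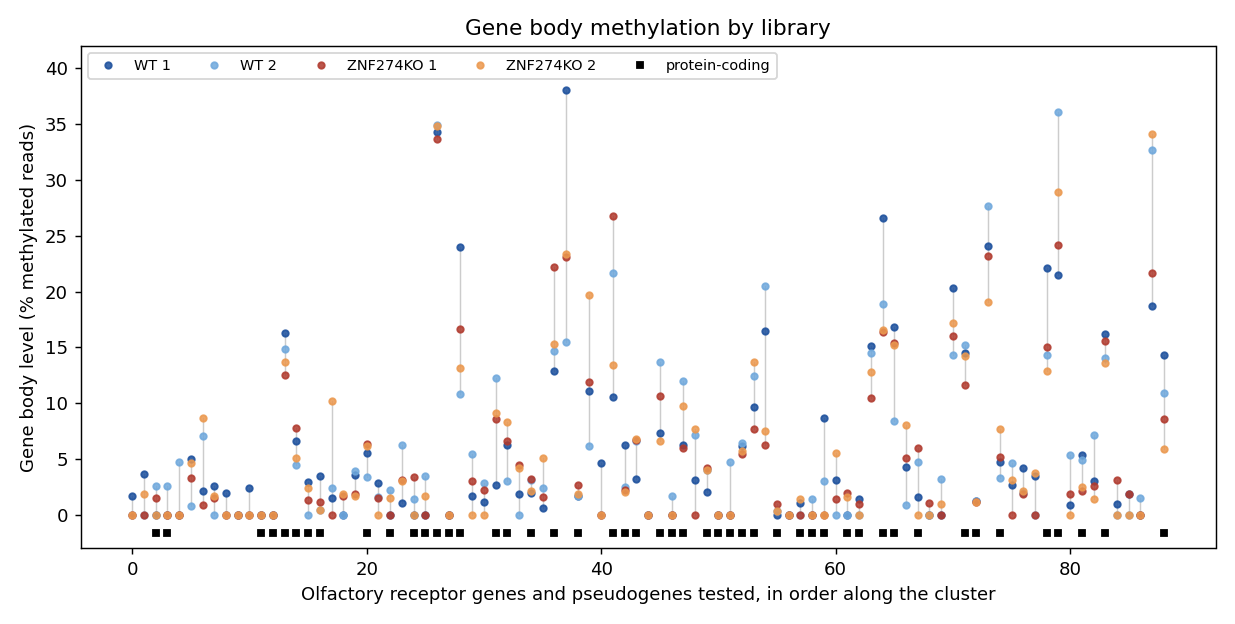
Gene body level (% methylated reads) of the 89 OR genes and pseudogenes tested, in their order along the cluster, with 1 point per library joined by a grey line and a black square under each protein-coding gene. Blue WT and red or orange ZNF274KO points are mixed, most genes lie under 10%, and OR5D18 stands near 34% in all 4 libraries.

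No OR gene body was called. Of the 98 OR genes and pseudogenes, 89 had 20 reads in every library (all 48 genes and 41 pseudogenes), and the edgeR test, fitted over 20237 gene bodies, called 0 of them, beside 0.909% of all bodies. At an unadjusted p under 0.05 there were 3 (3.37%), beside 7.22% of all bodies, and limma called 0, beside 32 of all bodies. Groups were apart with ZNF274KO higher in 12 bodies (13.5%), beside 9.28% of all bodies, and lower in 15 (16.9%), beside 30.2%. The median WT level of a body was 2.57%, 45 bodies were under 5% in every library, and 7 had no methylated read in any library. The precision for 1 gene is limited, since a body held a median of 10 CpGs, against 406 for all bodies. A change is harder to call with so few CpGs, so the shares above do not compare like with like.

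The most methylated OR body, chosen after the values were seen, was OR5D18 (chr11:55587106-55588047), at 34.3% and 34.9% in WT and 33.7% and 34.8% in ZNF274KO over 13 CpGs. Its level was alike in all 4 libraries. OR4A16, the first protein-coding OR gene, was at 0.00% and 2.53% in WT and 1.47% and 0.00% in ZNF274KO. There 0 of 81 and 0 of 49 reads would allow levels of up to 3.70% and 6.12% if the reads were independent. OR5G3, the last, was at 14.3% and 10.9% in WT and 8.57% and 5.88% in ZNF274KO over 4 CpGs (-5.35, edgeR adjusted p = 0.82).

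Among bodies with the groups apart, the largest fall was that of the pseudogene OR8I1P, at 16.4% and 20.5% in WT and 6.25% and 7.55% in ZNF274KO over 7 CpGs (-11.5, edgeR adjusted p = 0.68). OR5M9 stood at 26.6% and 18.9% in WT and 16.4% and 16.5% in ZNF274KO (-6.25, edgeR adjusted p = 0.77). OR8U1, whose upstream stretch is shown above, was at 8.70% and 3.03% in WT. In ZNF274KO it had 0 methylated reads among 67 and 47, which allow up to 4.48% and 6.38% if independent (edgeR adjusted p = 0.57). The limit for ZNF274KO thus reached above the level of WT 2. OR5M13P was at 24.1% and 27.6% in WT and 23.2% and 19.1% in ZNF274KO (-4.68).

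Higher in both ZNF274KO libraries were OR5J1P, at 11.1% and 6.17% in WT and 11.9% and 19.7% in ZNF274KO (7.16 points, edgeR adjusted p = 0.75), and OR5F1, at 12.9% and 14.7% in WT and 22.2% and 15.3% in ZNF274KO (4.98, edgeR adjusted p = 0.79). In each of these, 1 ZNF274KO library was within 1 point of a WT library. OR5M2P (3.99 points), OR10AF1P (3.40) and OR5I1 (2.81) followed, with ZNF274KO libraries at 8.33% or less. None of these genes passed the test, so the values describe these 4 libraries.

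Promoters, taken as 1 kb on either side of the annotated start, gave 98 of 98 OR genes and pseudogenes enough reads. Transcription may begin elsewhere than at the annotated start, which was not checked. Many OR bodies are shorter than 1 kb and lie wholly within this span, so the promoter values partly repeat those of the bodies. The body held 7 of the 9 promoter CpGs at OR8U1 and 12 of the 16 at OR5J1P. The edgeR test called 0 of them, beside 0.272% of 20211 promoters, with 3 (3.06%) at an unadjusted p under 0.05, beside 6.08% of all promoters. Limma called 0 of all 20211 promoters, so its lack of calls here carries no information. ZNF274KO was above WT without overlap in 8 (8.16%), beside 14.3% of all promoters, and below in 11 (11.2%), beside 20.6%. An OR promoter held a median of 11 CpGs, against 89 for all promoters, so these shares do not compare like with like either. The median WT level was 2.51%. The promoter of OR8J3 had the largest fall among those with groups apart, from 13.0% and 22.3% in WT to 9.0% and 9.16% in ZNF274KO (-8.57, edgeR adjusted p = 0.73), although the 250 bases before its start held no CpG. That of OR8U1 was at 6.82% and 2.41% in WT and at 0 of 86 and 0 of 60 reads in ZNF274KO (upper limits 3.49% and 5.0%). The promoter of OR10AG1 was at 0.00% and 0.980% in WT and 3.20% and 1.90% in ZNF274KO (2.06, edgeR adjusted p = 0.83). The largest rise was at OR5J1P, from 9.25% and 4.46% to 9.38% and 16.2% (5.91, edgeR adjusted p = 0.87).

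The 3 protein-coding genes of the cluster that are not olfactory receptors were not called either. The body of TRIM48 was at 8.03% and 7.02% in WT and 3.68% and 5.57% in ZNF274KO, with the groups apart (-2.90, edgeR adjusted p = 0.70). That of TRIM51, of the same tripartite motif family, was at 4.44% and 4.30% in WT and 6.68% and 3.80% in ZNF274KO, and that of ENSG00000284732 at 12.8%, 10.2%, 10.5% and 10.3%, and in both the groups overlapped (edgeR adjusted p = 0.90 and 0.89). Their promoters were at 5.0% or less in every library.

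Other tandem gene families differed strongly between the genotypes in the same libraries. The cluster of KRAB zinc finger protein (KZFP) genes at 19p12 (4.5 Mb, first and last CpGs at chr19:20000100 and chr19:24499597) went from 26.8% and 26.2% in WT to 62.8% and 53.2% in ZNF274KO, a difference of 31.5 points, and 636 of its 886 windows were called higher. The protocadherin cluster (0.75 Mb, first and last CpGs at chr5:140150024 and chr5:140899654), whose genes code for neuronal adhesion molecules, went from 48.4% and 49.4% to 65.2% and 55.7%, a difference of 11.5 points. The difference of the OR cluster was lower than that of 19p12 by 32.3 points and lower than that of the protocadherin cluster by 12.3 points (two-sided exact permutation p = 0.333 for each, the smallest possible). Against the rest of chromosome 11 (-0.344) it was lower by 0.506 points (exact permutation p = 1), against the 500 kb on either side (0.310) by 1.16 points (exact permutation p = 0.333) and against all other OR clusters pooled (0.527) by 1.38 points (exact permutation p = 0.667). These gaps moved with the library left out. Without ZNF274KO 1 and without ZNF274KO 2 the cluster differed by -7.56 and -17.1 points from the protocadherin cluster, by 0.322 and -1.33 from the rest of chromosome 11, by -0.319 and -2.0 from the 500 kb on either side and by -0.140 and -2.61 from the other OR clusters. Without WT 1 and without WT 2 the last was -0.658 and -2.10.

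The contrast with 19p12 was also present at equal WT levels. Among windows with a WT level under 10%, 0 of 235 in the OR cluster and 328 of 384 at 19p12 were called higher by edgeR, beside 1.67% of all windows with such a level. At an unadjusted p under 0.05 there were 17 of the 235 (7.23%), beside 10.2% of all windows with such a level. The median WT levels of these windows were 3.83% and 4.24%, and their median differences were -0.28 and 42.2 points. Among windows from 10% to under 20% in WT, 0 of 63 and 146 of 183 were called higher, beside 1.21% of all windows with such a level, with median differences of -1.6 and 43.4 points.

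**Figure D4:**
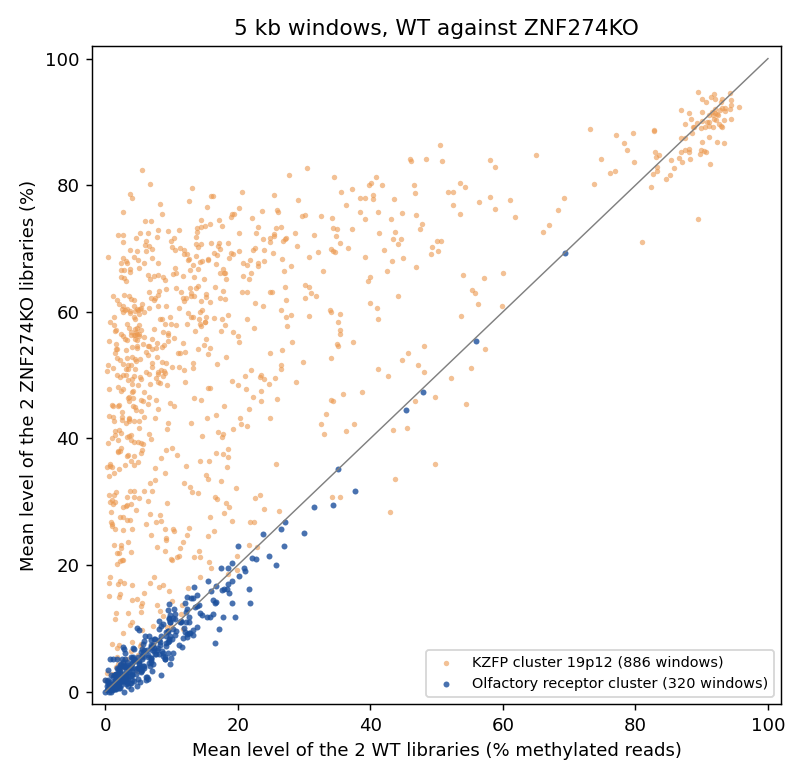
Mean level (% methylated reads) of the 2 ZNF274KO libraries against that of the 2 WT libraries, 1 point per 5 kb window, for the 320 windows of the OR cluster (blue) and 886 windows of the KZFP cluster at 19p12 (orange), with the line of equal levels in grey. The OR windows lie along the line, and most 19p12 windows lie above it, including those under 10% in WT.

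Most other OR arrays also had small differences. Outside the cluster, 31 clusters with at least 5 OR genes or pseudogenes held 582 of them, with WT levels from 4.04% to 71.9% (median 23.4%), and 6 of the 31 were below the cluster described here. Differences ran from -2.69 to 3.63 points in 30 of them. The exception was the cluster of 15 OR genes and pseudogenes on chromosome 19 (chr19:9193788-9390045). This cluster, whose span also holds the zinc finger gene ZNF317, was at 47.3% and 47.4% in WT and 63.5% and 56.3% in ZNF274KO, a difference of 12.6 points. Counted over its OR bodies alone it was 34.5% and 35.8% in WT and 54.7% and 47.2% in ZNF274KO. The nearest gene with a ZNF symbol to the cluster described here, ZNF408, lies 8273 kb away. Of the 31 other clusters, 15 have such a gene within 1000 kb, and its part in the differences was not tested.

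**Figure D5:**
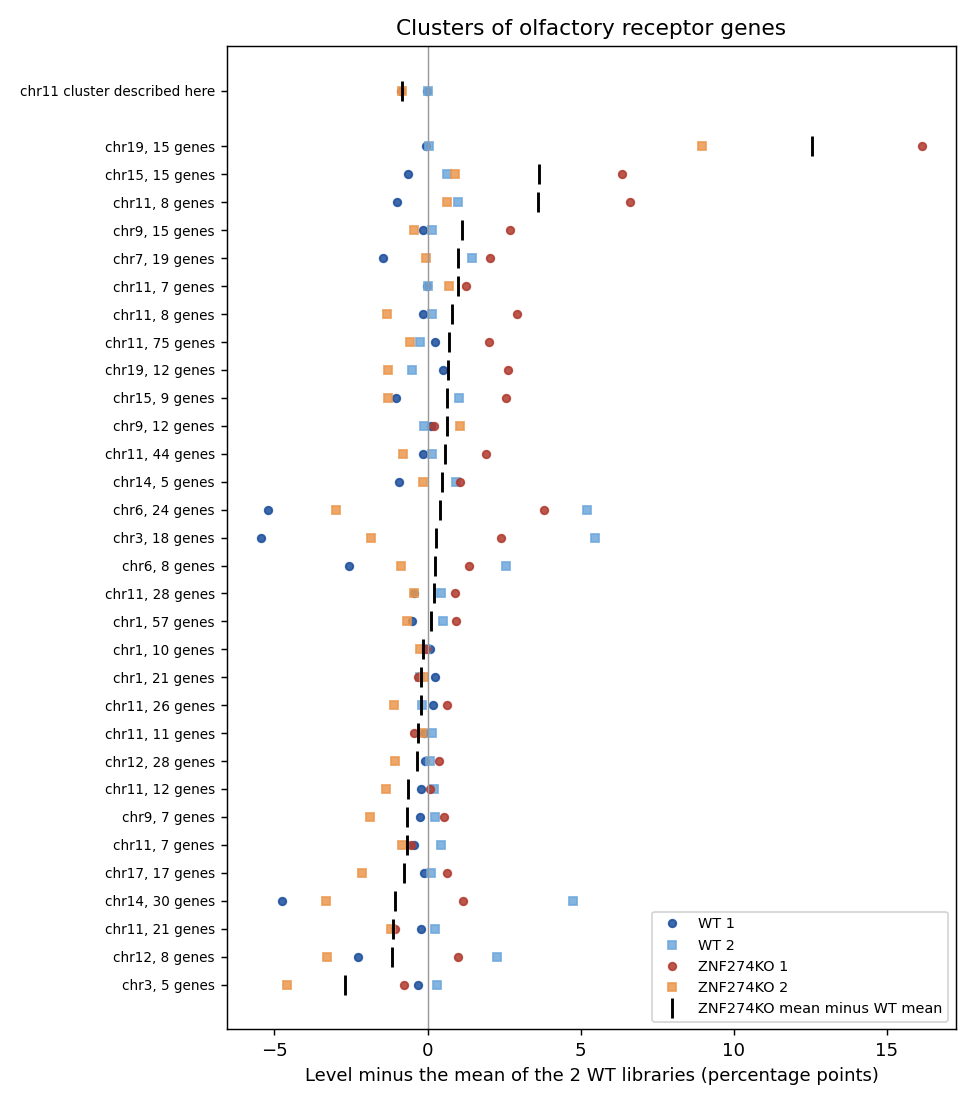
Level of each library minus the mean of the 2 WT libraries (percentage points) for the 31 other OR clusters, named by chromosome and number of OR genes and pseudogenes, and for the cluster described here (top), with the mean difference as a black bar. The chromosome 19 cluster with 15 genes stands apart at 12.6 points, and the cluster described here lies just below 0 with its libraries of each group close together.

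Among OR genes and pseudogenes outside the cluster, edgeR called 4 of 684 bodies (median 13 CpGs), beside 0.909% of all bodies (median 406 CpGs). All 4 were higher and were OR7G2, OR7D4, OR7E24 and OR7E19P, all of the chromosome 19 cluster. OR7D4, a receptor for the steroid androstenone, was at 14.8% and 11.98% in WT and 50.8% and 32% in ZNF274KO (edgeR adjusted p = 0.00178). It also called 6 of 733 promoters, all higher, beside 0.272% of all promoters, and 3 of these (OR7E18P, OR7E19P and OR7H1P) were in the same place. The others were OR13Z2P on chromosome 1 and OR11K1P on chromosome 15, the latter listed also as OR11K1BP with the same promoter, at 3.31% and 2.88% in WT and 24.2% and 14.2% in ZNF274KO (edgeR adjusted p = 0.0276). Without ZNF274KO 1 no body and 1 promoter of this list was called. The median difference of the 684 bodies was 0.27 points, against -0.92 for all bodies.

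The 20 genes of olfactory signalling and receptor choice, which include the G protein subunit GNAL, the adenylate cyclase ADCY3, the channel subunits CNGA2, CNGA4 and CNGB1 and the regulators LHX2, LDB1 and EBF1, were mostly methylated over their bodies (median WT level 72.7%). By edgeR, 0 of 20 bodies and 0 of 20 promoters were called, beside 0.909% and 0.272% of all bodies and promoters. Limma called 0 of the 20 bodies, beside 32 of 20237, and 0 of all promoters in the genome, so for promoters it carries no information. At an unadjusted p under 0.05 there was 1 of each (5%), beside 7.22% and 6.08%. Groups were apart with ZNF274KO lower in 7 bodies (35%), beside 30.2% of all bodies, and higher in 1, beside 9.28%. For promoters these counts were 5 (25%), beside 20.6%, and 4 (20%), beside 14.3%. The largest falls among these promoters were at REEP1, from 29.3% and 23.5% in WT to 21.3% and 13.97% in ZNF274KO (-8.78, edgeR adjusted p = 0.82), and at SLC24A4, from 27.8% and 27.2% to 18.7% and 19.01% (-8.63, edgeR adjusted p = 0.78). The median difference over bodies was -1.58 points, against -0.92 for all bodies. ANO2, the calcium-activated chloride channel of olfactory cilia, was at 26.5% and 25.01% in WT and 37.7% and 29.0% in ZNF274KO (7.59 points, edgeR adjusted p = 0.19), and the groups did not overlap. This body passed the threshold with the replicate number as a block (edgeR adjusted p = 0.00473), with the numbers crossed (0.00944) and without ZNF274KO 2 (11.9 points, 0.00618). The gene of the olfactory marker protein, OMP, was at 92.1% and 85.9% in WT and 88.9% in either ZNF274KO library.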

How the data were processed

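The authors aligned the EM-seq reads to hg19 plus rDNA by Msuite2 (options -3 and -m BS) with hisat2. The deposited counts are those of each library per CpG, strand and base call, neither pooled nor normalised. How duplicates and poorly mapped reads were handled is not given in the sources used here. Intervals, already too narrow where a read covers several CpGs, would be more so if duplicates remained. Reads from repeated sequence can be placed on the wrong copy. From these counts, reads with C over reads with C or T on both strands gave the level of a region. All 1286076 sites listed on chromosome 11 lie on a CG of GRCh37. Counted once for each CpG covered, the libraries held 241598512 to 295114493 reads on autosomal and X-linked CpGs. By the same count a window of the cluster had a median of 204 to 251 reads a library.

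Genes were those of GENCODE release 44 mapped to GRCh37, and promoter sequences those of RefSeq (GRCh38.p14), placed by exact match. The quasi-likelihood test of edgeR 4.0.16 (R 4.3.3) was run on counts of methylated and unmethylated reads (1 term for each library, 1 methylation log-odds for each group) in regions that had 20 or more reads in each library. P-values were adjusted over all windows, bodies or promoters (Benjamini-Hochberg, threshold 0.05). The test was also run on simulated data with 1 fixed spread between libraries, and no support is drawn from that run. Levels of pooled regions were compared by exact permutation. OR clusters elsewhere had at least 5 OR genes with starts under 100 kb apart. Alternatives were minimums of 10 and 50 reads, limma 3.58.1 (log2 ratios, pseudocount 1), replicate blocks, centring on the genome-wide level, removal of CpGs deeper than 5 times the median, a minimum of 3 reads per CpG, single strands, windows and promoters of other sizes, and leaving out each library. Python 3.11.15 was used with scipy 1.17.1, numpy 2.4.6, matplotlib 3.10.9 and pandas 2.3.3.

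The region, taken by position, and the gene lists were proposed with earlier results of these data known. Windows named in the text are the 3 largest rises and 3 largest falls with at least 10 CpGs and groups apart, genes and promoters the 5 largest in each direction with groups apart or examples of them, and the first and last OR gene and the other protein-coding genes; further choices are marked where they appear. Same-numbered libraries did not deviate together (correlation -0.108 over all windows, 0.0131 in the cluster), so the replicate number was not used as a pairing. The sequence of 1 stretch of the cluster is not reported here.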

Additional observations from a re-analysis of the deposited data

How the results depend on the processing

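No OR gene body or promoter of the cluster was called under any alternative run, and the whole-cluster difference stayed between -0.943 and -0.308 points. In the cluster 1 window (chr11:56405001-56410000) was called with the replicate block, with the crossed replicate block (chosen after the correlation of -0.108 was seen; 6612 windows called in the genome) and without WT 1, so that leaving out each library gave 0 to 1. Over all features the counts of calls were 2740 windows (856 by limma, 4789 with the block, 1895 to 6541 without a library, 1424 of 282606 in 10 kb and 701 of 141675 in 20 kb windows), 184 bodies (32 by limma, 274 with the block, 279 crossed, 98 to 231 without a library) and 55 promoters (0 by limma, 191 with the block, 180 crossed, 31 to 120 without a library, 2 with 500 bases and 103 with 2 kb on either side). With the block the whole-cluster difference was -0.849, from pairs of -0.840 and -0.859.

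Small differences turned sign. OR bodies came to 0.128 as an unweighted mean over CpGs and to 0.254 relative to the genome. OR pseudogene bodies came to 0.0878 on the Crick strand, 0.0820 in stretches that occur once (chosen after seeing the data), 0.254 relative to the genome and 0.575 without ZNF274KO 1 (range without a library -1.15 to 0.575). Against the rest of chromosome 11 the cluster ranged from -1.33 to 0.322 without a library, the last without ZNF274KO 1. Its lower difference than the other regions kept its sign, at -37.1 to -27.5 against 19p12, -17.1 to -7.56 against the protocadherin cluster, -2.0 to -0.319 against the 500 kb on either side and -2.61 to -0.140 against the other OR clusters. Bodies that turned, with their range without a library, were OR4A16 (-1.80 to 0.735 without WT 2, and 0.205 without ZNF274KO 2), ENSG00000284732 (-2.46 to 0.200, without WT 1) and TRIM51 (-0.566, without ZNF274KO 1, to 2.31). Promoters that turned were TRIM51 (-1.99 to 0.0321, without WT 1), TRIM48 (-3.50 to 0.993, without WT 2, and 0.497 with 2 kb), OR4A16 (-1.22 to 0.459, without WT 2, and 0.0771 without ZNF274KO 2), ENSG00000284732 (-2.71 to 1.27, without WT 2), OR5M9 (0.0142 with 500 bases) and OR9G1 (-1.78 with 2 kb). The cause was not tested.

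Calls elsewhere moved too. OR bodies outside the cluster called were 9 with the crossed block and 0 to 7 without a library. OR promoters outside it were 0 by limma, 12 with the block, 12 crossed, 0 with 500 bases and 1 to 8 without a library. Of the signalling genes 1 body was called with the block, with the crossed block and in 0 to 1 without a library. Leaving out soft-masked sequence was not run, since the reference used here marks none. Depth and the few CpGs of OR bodies limit what single genes can show.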
